A study of Mus musculus with 9 samples.

Results

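Nodal signalling was followed through 10 genes in spermatogonial stem cells (SSC) and in induced pluripotent stem cells (iPSC) made from SSC or from fetal fibroblasts. The members were the ligands Nodal and Gdf3, the antagonists Lefty1 and Lefty2, the co-receptor Tdgf1 (Cripto), the receptors Acvr1b and Acvr2b, the signal transducer Smad2, the inhibitory Smad7 and the DNA-binding partner Foxh1. They were chosen by name as parts of 1 pathway, with earlier results of these data known. Each was found among the 54913 loci of the expression table by its position in the mouse genome (build GRCm38), not by the gene names printed there. All 10 genes had a locus, although Lefty1 and Lefty2 share 1 interval and could not be told apart there, so that 10 loci stand for the 10 genes.

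The 9 libraries fell into 3 groups of 3. SSC were primary cells (passage 0) from PND6 mouse testes, enriched by magnetic sorting for the surface protein Gfra1. SSCiPSC came from such cells and fiPSC from male fetal fibroblasts, both labelled passage 10 to 11 and grown in embryonic stem cell medium with LIF. The study's methods give later passages for the iPSC used and a magnetic sort for SSEA1 to reduce feeder cells. All 3 groups carry the alleles Gt(ROSA)26Sortm1(rtTA*M2)Jae and Col1a1tm3(tetO-Pou5f1,-Sox2,-Klf4,-Myc)Jae, through which doxycycline switches on the 4 reprogramming factors in any cell with both alleles. The labels list doxycycline in the medium, whereas the study's methods describe its withdrawal some passages before. Colonies were picked to make clonal lines, but the labels do not say whether the 3 iPSC libraries of a group are separate lines or the 3 SSC libraries separate pools of pups, so the p-values measure the spread between these libraries only.

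Nodal is a secreted ligand of the TGF-beta family that patterns the early embryo and is made by the epiblast and by pluripotent cells in culture. It binds a complex of Acvr2b and Acvr1b that needs Tdgf1 as co-receptor, and the active receptor phosphorylates Smad2, which enters the nucleus with Smad4 and is brought to DNA by Foxh1. The targets include Nodal itself and its antagonists Lefty1 and Lefty2, and Smad7 shuts the receptor off.

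Levels are FPKM, fragments per kilobase of transcript scaled to the size of the library, as the authors deposited them. Differences are of mean log2(FPKM + 1), tested with limma and adjusted by Benjamini-Hochberg over all loci tested, with a threshold of 0.05. The depth of the libraries differed. The steps between low values correspond to 1755000, 4612000 and 1372000 fragments in the 3 SSC libraries, 13670000 to 15780000 in SSCiPSC and 13250000 to 17570000 in fiPSC. A single fragment on 1 kilobase is thus worth 0.570, 0.217 and 0.729 FPKM in SSC replicates 1 to 3, and at most 0.0755 FPKM in any iPSC library.

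The labels were first checked against marker genes. Gfra1, the receptor used for sorting, stood at 37.7, 34.1 and 23.9 FPKM in SSC and at no more than 0.171 FPKM in the 6 iPSC libraries. Dazl, a germ cell RNA-binding protein, stood at 174 to 263 FPKM in SSC and 15.3 to 42.3 FPKM in iPSC, and of 11 germ line markers tested 9 were lower and 2 (Etv5 and Kit) higher in both iPSC groups than in SSC. Nanog, a transcription factor of pluripotent cells, was listed at 0 in all 3 SSC libraries, at 426 to 483 FPKM in SSCiPSC and at 270 to 295 FPKM in fiPSC. The SSC libraries also held transcripts of testicular somatic cells. The 8 Sertoli cell markers with a locus, of 11 listed, summed to 1354, 1466 and 1231 FPKM there, with Clu as the most abundant at 538 to 713 FPKM, against 57.9 to 103 FPKM in iPSC, where Ctsl gave most of the sum and Cst12 was at 0 in all 6 libraries. The 3 Leydig cell markers with a locus, of 8 listed, summed to 124 to 237 FPKM in SSC, led by Cyp11a1, and to at most 0.358 FPKM in iPSC. The 5 mast cell markers with a locus, of 6 listed and led by Tpsab1, differed most within SSC, at 107, 425 and 1179 FPKM in replicates 1 to 3, with at most 0.0806 FPKM in iPSC. All 8, 3 and 5 markers fell in SSCiPSC against SSC (limma). The 5 peritubular myoid markers with a locus, of 6 listed, summed to 82.5 to 97.2 FPKM in SSC and at most 15.9 FPKM in iPSC. The 5 macrophage markers with a locus, of 7 listed, summed to 32.6, 11.8 and 108 FPKM in SSC and 8.34 to 14.3 FPKM in iPSC. The 6 endothelial markers, all with a locus, summed to 59.2 to 119 FPKM in SSC and 107 to 146 FPKM in iPSC. Pecam1 alone gave 79.6 to 125 FPKM of the latter, whereas Cdh5 stood at 12.6 to 27.2 FPKM in SSC and at most 0.0458 FPKM in iPSC, and Kdr at 9.06 to 15.6 and at most 0.103 FPKM. Of the macrophage sum in iPSC, Cd68 gave 7.65 to 13.7 FPKM, whereas Csf1r stood at 1.89 to 25.2 FPKM in SSC and at most 0.383 FPKM in iPSC. The 10 fibroblast or feeder markers, led by Vim in SSC, summed to 406 to 816 FPKM in SSC, 358 to 454 FPKM in SSCiPSC and 276 to 354 FPKM in fiPSC. Vim and Fn1 gave most of the sum in iPSC, at 120 to 259 and 118 to 195 FPKM. Fn1 stood at 26.8 to 36.2 FPKM in SSC, whereas Col3a1 stood at 27.4 to 95.9 FPKM in SSC and 2.93 to 14.1 FPKM in iPSC. In SSCiPSC against SSC, 1 of the 10 was called higher (Fn1) and 6 lower (limma), beside 26.2% and 24.1% of all loci. How far these cells bear on the levels of the members in SSC was not tested. In bulk RNA, fewer cells of a type and less RNA per cell cannot be told apart.

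Of the 10 members, 9 were higher and 1 was lower in SSCiPSC than in SSC, all past the threshold, and in none did the 2 groups overlap. Among all 36544 loci tested, 26.2% were called higher and 24.1% lower, and 59.8% did not overlap. The median difference over the members was 4.58 on the log2 scale, beside 0.11 over all loci. Against SSC, fiPSC were higher in 8 members and lower in 1, with 9 of 10 not overlapping and a median of 4.95. There, 28.0% of 38007 loci were called higher and 23.7% lower, 61.6% did not overlap, and the median over all loci was 0.17. Both comparisons share the SSC libraries. The members fell into a group of 6 loci (Nodal, Gdf3, Tdgf1, the 2 Lefty loci and Foxh1) that were at or near 0 in SSC and abundant in iPSC, and 4 genes (Acvr1b, Acvr2b, Smad2 and Smad7) that were expressed in all 3 groups. An exact two-sided permutation test of 3 against 3 libraries cannot go below 0.1, and it gave 0.1 for each member in SSCiPSC against SSC, and in fiPSC against SSC for all but Smad7, at 0.2.

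**Figure D1:**
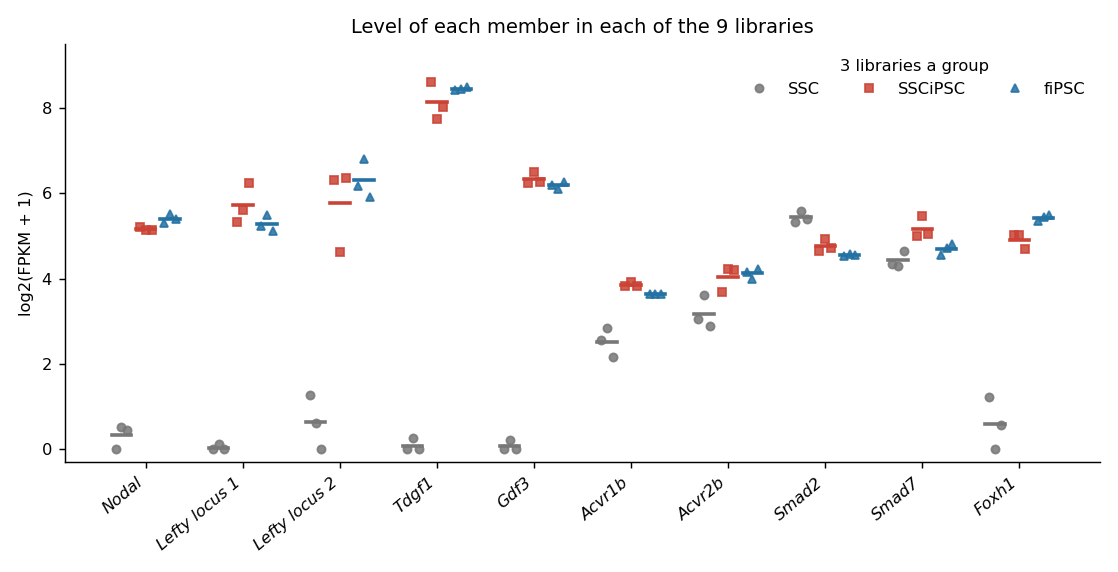
Level of each member as log2(FPKM + 1) in each of the 9 libraries (points), with the mean of each group of 3 (line). The first 5 loci and Foxh1 lie between 0 and 1.43 FPKM in SSC and at 23.9 FPKM or more in all 6 iPSC libraries, whereas the receptors and Smads are expressed in all 3 groups.

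Nodal (ENSMUSG00000037171.6, chr10:61418217-61425573, plus strand) was read at a locus that spans the exons and introns of the gene. It was listed at 0, 0.449 and 0.375 FPKM in SSC replicates 1 to 3, at 36.0, 34.6 and 34.3 FPKM in SSCiPSC and at 38.6, 44.6 and 41.0 FPKM in fiPSC. The SSC values correspond to 0, 4 and 1 fragments on its transcript of 2095 bases, and a count of 0 in replicate 1 allows up to 0.880 FPKM. All 6 iPSC libraries were therefore far above all 3 SSC libraries. The difference was 4.84 ± 0.23 (SE) in SSCiPSC and 5.07 ± 0.21 in fiPSC (limma, adjusted p = 5.71e-05 and 3.72e-05). For loci at or near 0 such a value depends on the pseudocount and is not a bound: with 0.1 in place of 1, Nodal differed by 6.88 in SSCiPSC. The replicates of SSCiPSC were close to each other, with the highest 1.05 times the lowest.

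The stretch before the start of Nodal is shown because the gene is a textbook target of its own pathway. These are the 250 bases before its RefSeq start site (GRCm38.p6, chr10:61417722-61417971, plus strand), 5′ to 3′:
Nodal: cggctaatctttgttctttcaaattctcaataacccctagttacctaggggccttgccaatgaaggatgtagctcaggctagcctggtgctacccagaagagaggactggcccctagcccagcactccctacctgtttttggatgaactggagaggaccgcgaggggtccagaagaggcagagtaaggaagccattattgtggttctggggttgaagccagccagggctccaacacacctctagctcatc
No match to the searched FoxH1 words AATCCACA and AATACACA or the Smad words CAGAC and GTCTAGAC, on either strand, lay in the 300-base window from 250 before to 50 after the start. A known enhancer of Nodal that binds FoxH1 lies within the gene, outside this window. A separate locus of 177 bases with no strand given (chr10:61417724-61417900) lies within the printed stretch. It held 0 in the 3 SSC libraries, 4.09, 4.21 and 0 FPKM in SSCiPSC and 7.12, 6.89 and 8.91 FPKM in fiPSC. Loci this short reach such values with few fragments.

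Gdf3 (ENSMUSG00000030117.5, chr6:122606109-122610115, minus strand) encodes a related ligand that also uses Tdgf1. It was at 0, 0.168 and 0 FPKM in SSC, at 75.2, 90.0 and 76.5 FPKM in SSCiPSC and at 72.4, 67.5 and 75.9 FPKM in fiPSC. The value in SSC replicate 2, the deepest SSC library, amounts to 1 or 2 fragments. The 2 iPSC groups overlapped and both were far above SSC, by 6.27 ± 0.19 and 6.11 ± 0.16 on the log2 scale (limma, adjusted p = 1.52e-05 and 1.19e-05). Gdf3 was more abundant than Nodal in each iPSC library.

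Tdgf1 (ENSMUSG00000032494.12, chr9:110939937-110946402, minus strand), the membrane-anchored co-receptor, was the most abundant member in every iPSC library. It stood at 0, 0.209 and 0 FPKM in SSC, at 392, 214 and 261 FPKM in SSCiPSC and at 341, 348 and 359 FPKM in fiPSC. The fiPSC libraries differed little (349 ± 9.17 FPKM, SD, n = 3), whereas SSCiPSC replicate 1 was 1.84 times replicate 2. The difference from SSC was the largest of the members, at 8.04 ± 0.25 in SSCiPSC and 8.36 ± 0.13 in fiPSC (limma, adjusted p = 2.06e-05 and 1.81e-06). A separate locus of 225 bases at the 3′ end of the gene, with no strand given, held 0 in the 3 SSC libraries, 1346, 739 and 857 FPKM in SSCiPSC and 694, 829 and 783 FPKM in fiPSC. Of the 100-base words in the Tdgf1 transcripts, 3.17% also occur in the processed copy Tdgf1-ps1, so a small part of the reads could come from either.

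The stretch before Tdgf1 is shown as that of the member with the largest difference. The 250 bases before its RefSeq start site (GRCm38.p6, chr9:110946159-110946408, minus strand) read 5′ to 3′, with the Smad word CAGAC in capitals:
Tdgf1: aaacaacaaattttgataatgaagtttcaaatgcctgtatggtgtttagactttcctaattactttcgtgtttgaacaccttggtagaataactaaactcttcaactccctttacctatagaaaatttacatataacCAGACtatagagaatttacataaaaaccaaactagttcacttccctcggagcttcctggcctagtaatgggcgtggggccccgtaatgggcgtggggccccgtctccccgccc
The word begins 113 bases before the start site. The locus read as Tdgf1 extends past that start site to chr9:110946402, so its interval covers most of the printed stretch, the word included. CAGAC or its reverse complement occurs in 49.6% of 32851 promoter windows of 300 bases, and in 2 of the 4 member windows (Tdgf1 and Acvr2b, the latter 233 bases before the start; Nodal and Acvr1b have none). AATCCACA lay in 0.855%, AATACACA in 0.980% and GTCTAGAC, which does not hold CAGAC as a whole, in 0.213% of all windows, and in none of the 4. The other 6 members had no window here.

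Lefty1 (chr1:180935022-180938400) and Lefty2 (chr1:180893108-180899103) encode secreted proteins that block Nodal and its co-receptor. They are neighbours on the plus strand and close copies. Of 1107 coding bases, 1017 are identical (91.9%) and 90 differ. The longest coding run that both share is 140 bases, longer than the reads of 100 bases. Reads inside that run fit both genes, but such 100-base words make up only 5.85% of the Lefty1 transcript words and 3.86% of those of Lefty2.

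The deposited interval (chr1:180892774-180938445) spans both genes and holds 2 plus-strand loci. Which gene each locus stands for is not stated, so a locus may hold fragments of either or of other sequence in the interval. They are called Lefty locus 1 and Lefty locus 2 in the order of the table. Lefty locus 1 was at 0, 0.0934 and 0 FPKM in SSC, at 39.3, 48.2 and 74.9 FPKM in SSCiPSC and at 36.8, 44.4 and 33.5 FPKM in fiPSC. Its value in SSC replicate 2 is that of 1 fragment on a transcript of 2478 bases, close to the 2473 bases of the longest Lefty2 transcript. Lefty locus 2 was at 1.43, 0.545 and 0 FPKM in SSC, at 78.9, 23.9 and 81.2 FPKM in SSCiPSC and at 71.3, 111 and 59.6 FPKM in fiPSC. Neither locus overlapped between SSC and iPSC. Lefty locus 1 differed by 5.69 ± 0.28 in SSCiPSC and 5.24 ± 0.19 in fiPSC, and Lefty locus 2 by 5.14 ± 0.56 and 5.67 ± 0.39 (limma, adjusted p from 2.68e-05 to 0.000580).

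The 2 Lefty loci did not keep 1 ratio across the iPSC libraries. Locus 2 was 2.01, 0.495 and 1.08 times locus 1 in SSCiPSC replicates 1 to 3, and 1.94, 2.50 and 1.78 times locus 1 in fiPSC. SSCiPSC replicate 2 was the 1 library in which locus 2 was the lower. Within SSCiPSC, locus 2 spanned 3.40-fold from lowest to highest, a spread reached by 2.2% of the 6596 loci with a mean of at least 20 FPKM there, where the median was 1.31. A further locus of the interval lies in the block of minus-strand loci, where no coding gene is annotated. It was at 0 in SSC, at 50.5, 14.1 and 45.3 FPKM in SSCiPSC and at 36.8, 58.5 and 31.3 FPKM in fiPSC, which is 0.515 to 0.640 of locus 2 in each iPSC library. The labels name a stranded kit, but whether the counting used strand is not given in the sources used here.

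**Figure D2:**
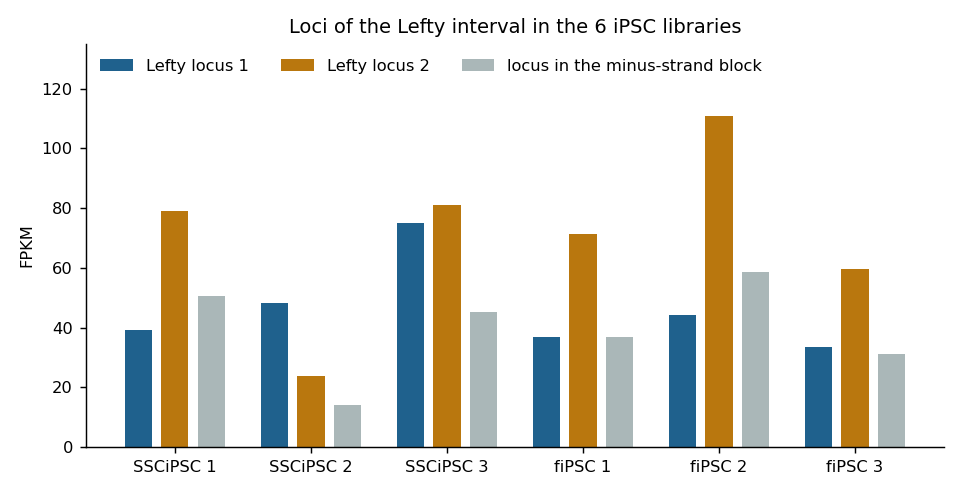
FPKM (bars from 0) of the 2 plus-strand loci of the Lefty interval and of the locus in the minus-strand block, in each of the 6 iPSC libraries. The minus-strand locus follows Lefty locus 2, which falls to 23.9 FPKM in SSCiPSC replicate 2, and Lefty locus 1 does not.

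Foxh1 (ENSMUSG00000033837.5), the winged-helix factor that carries Smad2 to DNA, was read at the 1 minus-strand locus of an interval (chr15:76660416-76700115) that also spans 2 genes of the other strand, Kifc2 and Ppp1r16a. It stood at 1.32, 0 and 0.484 FPKM in SSC, or about 3, 0 and 1 fragments, at 31.4, 31.6 and 24.9 FPKM in SSCiPSC and at 40.1, 42.3 and 44.3 FPKM in fiPSC. Every fiPSC library was above every SSCiPSC library, and both groups were above SSC, by 4.32 ± 0.34 and 4.84 ± 0.32 on the log2 scale (limma, adjusted p = 0.000226 and 0.000135).

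The receptors were expressed in SSC and rose in both iPSC groups. Acvr1b (ENSMUSG00000000532.11, chr15:101173596-101213766, plus strand), the type I receptor also called ALK4, stood at 4.94, 6.15 and 3.51 FPKM in SSC, at 13.2, 14.2 and 13.2 FPKM in SSCiPSC and at 11.6, 11.4 and 11.5 FPKM in fiPSC. The groups did not overlap, and the mean was 2.77 times that of SSC in SSCiPSC and 2.36 times in fiPSC (log2 difference 1.33 ± 0.23 and 1.11 ± 0.21, limma, adjusted p = 0.00327 and 0.00526). Acvr2b (ENSMUSG00000061393.14, chr9:119402540-119433502, plus strand), a type II receptor shared with activins, stood at 7.26, 11.2 and 6.42 FPKM in SSC, at 11.9, 17.8 and 17.3 FPKM in SSCiPSC and at 17.0, 14.9 and 17.8 FPKM in fiPSC. SSC replicate 2 and SSCiPSC replicate 1 lay next to each other, at 11.2 and 11.9 FPKM. The mean was 1.89 times that of SSC in SSCiPSC and 1.99 times in fiPSC (log2 difference 0.86 ± 0.27 and 0.95 ± 0.22, limma, adjusted p = 0.0345 and 0.0124). Of the members this was the call nearest the threshold. In SSCiPSC, without its replicate 2 or 3, or SSC replicate 1 or 3, the adjusted p was 0.119, 0.122, 0.0851 and 0.0801 (limma). The differences were then 0.76, 0.78, 0.79 and 0.71. In fiPSC, without its replicate 1 or 3, the adjusted p was 0.0556 and 0.0568, with differences of 0.93 and 0.90. With summed loci the difference was 0.62 in SSCiPSC (limma, adjusted p = 0.0647) and 0.73 in fiPSC (adjusted p = 0.0123). A plus-strand locus just past the end of the Acvr2b locus (chr9:119433649-119442111) moved the same way, from 2.08 to 2.53 FPKM in SSC to 9.23 to 13.3 FPKM in iPSC. A locus inside the gene with no strand given stood at 0.911 to 2.85 FPKM in SSC and 0.557 to 1.72 FPKM in iPSC. The remaining loci at the gene stood at 2.73 FPKM or less and overlapped between SSC and iPSC.

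Smad2 was the 1 member whose chosen locus was lower in iPSC. This transducer of activin and Nodal signals (ENSMUSG00000024563.16, chromosome 18) stood at 39.3, 46.7 and 41.0 FPKM in SSC, at 24.0, 29.3 and 25.4 FPKM in SSCiPSC and at 22.2, 23.0 and 22.6 FPKM in fiPSC. The groups did not overlap. The SSC mean was 1.61 times that of SSCiPSC and 1.87 times that of fiPSC (log2 difference -0.67 ± 0.14 and -0.87 ± 0.11, limma, adjusted p = 0.00813 and 0.000954). The 3 other loci at the gene, all with no strand given, differed in direction. One across the 5′ end stood at 4.11 to 6.88 FPKM in SSC and at 1.42 to 4.06 FPKM in iPSC. A locus inside the gene near its 3′ end stood at 4.12 to 6.58 FPKM in SSC and at 10.2 to 13.6 FPKM in iPSC, and a locus across the 3′ end stood at 3.07 to 5.70 and 4.99 to 7.52 FPKM. When the loci assigned to the gene were summed, the SSCiPSC difference was -0.22 with an adjusted p of 0.159 (limma). In fiPSC the difference ranged from -1.19 to -0.43 over 15 alternatives, with an adjusted p of at most 0.00841 (limma). By their chosen loci, Smad2 was the most abundant member in each SSC library, whereas in each iPSC library Tdgf1 was.

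Smad7 (ENSMUSG00000025880.11, chromosome 18), which recruits ubiquitin ligases to the active receptor, stood at 19.5, 18.5 and 23.9 FPKM in SSC, at 31.2, 43.2 and 32.1 FPKM in SSCiPSC and at 22.4, 25.4 and 27.3 FPKM in fiPSC. SSCiPSC lay above both other groups, and fiPSC overlapped with SSC. The SSCiPSC mean was 1.72 times that of SSC (log2 difference 0.75 ± 0.19, limma, adjusted p = 0.0153, and 0.0926 after quantile normalization). In fiPSC the difference from SSC was 0.27 ± 0.15, with an adjusted p of 0.170 that fell to 0.0488 with median-ratio scaling and to 0.0324 with summed loci.

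**Figure D3:**
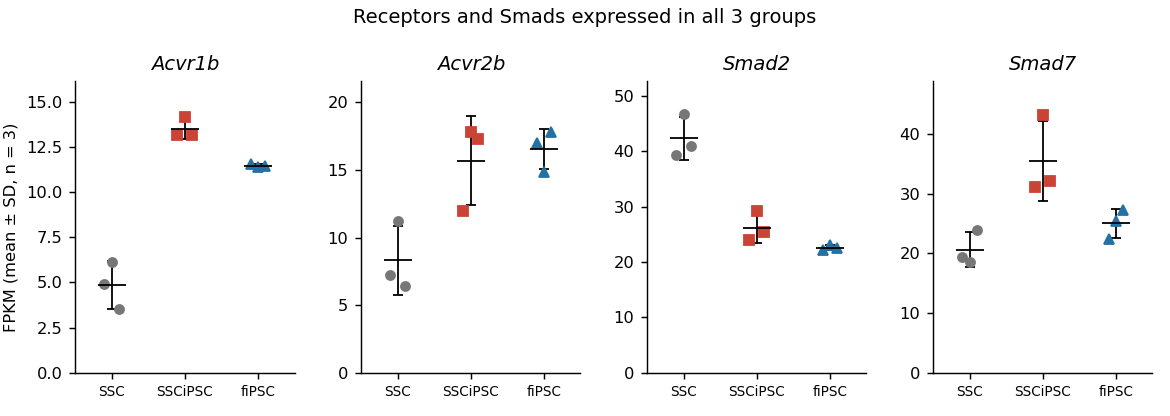
FPKM of the 4 members expressed in all groups, per library (points) with the mean ± SD of 3 libraries (lines), each axis starting at 0. At the chosen loci, Acvr1b and Acvr2b are higher and Smad2 is lower in both iPSC groups than in SSC, and Smad7 is highest in SSCiPSC.

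FPKM are scaled by length, so the levels of the members can be ordered within a group. In SSC, Smad2 (42.4 ± 3.85 FPKM, SD, n = 3) was followed by Smad7 (20.6 ± 2.90), Acvr2b (8.30 ± 2.57) and Acvr1b (4.87 ± 1.32), with no overlap between neighbours, and the other 6 loci were at or below 1.43 FPKM. In SSCiPSC, Tdgf1 (289 ± 92.5) stood above Gdf3 (80.6 ± 8.19), the Lefty loci (61.3 ± 32.5 and 54.1 ± 18.5), Smad7 (35.5 ± 6.67), Nodal (35.0 ± 0.923), Foxh1 (29.3 ± 3.81), Smad2 (26.2 ± 2.72), Acvr2b (15.7 ± 3.26) and Acvr1b (13.5 ± 0.567). Only the steps from Tdgf1 to Gdf3, from Nodal to Foxh1 and from Smad2 to Acvr2b separated neighbours whose libraries did not overlap. In fiPSC the order was Tdgf1 (349 ± 9.17), Lefty locus 2 (80.6 ± 26.9), Gdf3 (71.9 ± 4.23), Foxh1 (42.2 ± 2.11), Nodal (41.4 ± 3.02), Lefty locus 1 (38.2 ± 5.55), Smad7 (25.0 ± 2.50), Smad2 (22.6 ± 0.412), Acvr2b (16.6 ± 1.50) and Acvr1b (11.5 ± 0.0900). There the neighbours that did not overlap were Tdgf1 and Lefty locus 2, Gdf3 and Foxh1, Lefty locus 1 and Smad7, Smad2 and Acvr2b, and Acvr2b and Acvr1b.

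The comparison of fiPSC with SSCiPSC asks whether the cell of origin left a difference in the reprogrammed cells. None of the 10 members passed the threshold (limma, adjusted p from 0.247 to 0.889), where 0.0678% of 33948 loci were called. At an unadjusted p under 0.05 there were 2 members, Foxh1 and Smad7, beside 11.7% of all loci. Foxh1 was 1.44 times as high in fiPSC (log2 difference 0.52 ± 0.13, limma, adjusted p = 0.247), with every fiPSC library above every SSCiPSC library. Smad7 in fiPSC was 0.705 times its SSCiPSC mean (-0.48 ± 0.16, limma, adjusted p = 0.332). With summed loci the Smad7 difference was -0.11 (limma, adjusted p = 0.82). In 5 members the groups did not overlap (Nodal and Foxh1 higher in fiPSC, and Acvr1b, Smad2 and Smad7 lower), beside 18.6% of all loci. Nodal differed by 0.24 ± 0.10, Acvr1b by -0.22 ± 0.12 and Smad2 by -0.20 ± 0.12. The 2 Lefty loci differed in opposite directions, by -0.45 ± 0.24 and 0.53 ± 0.48, both with overlapping groups. Without SSCiPSC replicate 2 the difference of Lefty locus 2 was -0.04.

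**Figure D4:**
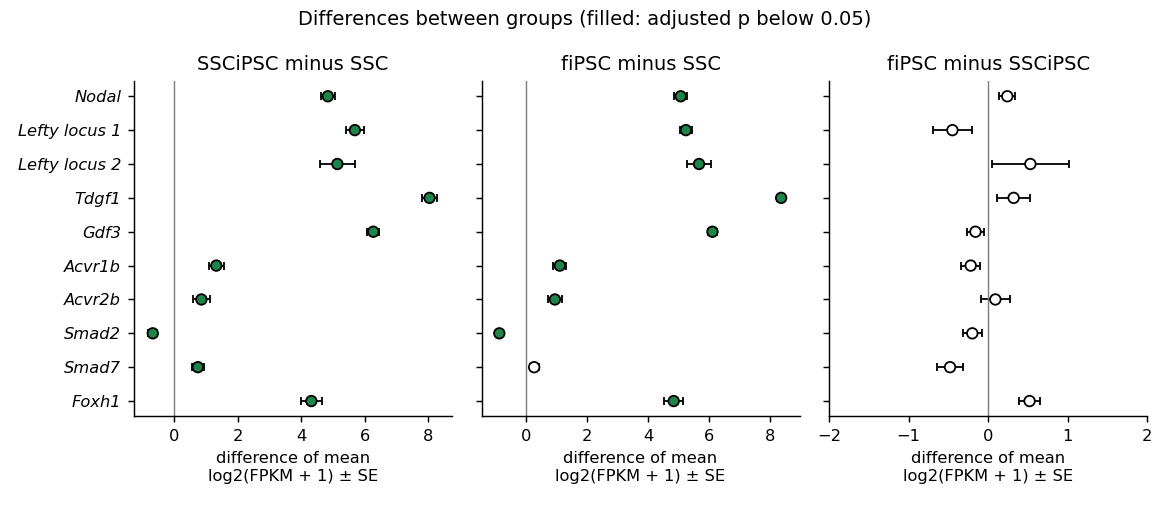
Difference of mean log2(FPKM + 1) ± SE (limma) of each member in the 3 comparisons, each panel with its own scale. Filled points have an adjusted p below 0.05: 10 members in SSCiPSC minus SSC, 9 in fiPSC minus SSC and none in fiPSC minus SSCiPSC.

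The rest of the pathway was read from a list of 43 further genes, of which 36 could be given a locus and 31 were tested against SSC. Gdf1 lay in a wider interval, and Inha and Gdf11 shared an interval with other genes of their strand and took their locus by the order of the genes. In SSCiPSC, 4 were higher and 16 lower than in SSC, and 11 did not pass, where 26.2% of all loci were called higher and 24.1% lower. In fiPSC, 4 were higher, 17 lower and 10 did not pass, beside 28.0% and 23.7% of all loci. The median difference of the list was -0.64 and -0.58, beside 0.11 and 0.17 over all loci. With a filter of a mean of at least 5 FPKM, 19 of the genes were tested in SSCiPSC, of which 4 were higher and 9 lower, beside 38.2% and 19.4% of the 16833 loci that this filter left. Against SSCiPSC, no gene of 23 tested in fiPSC passed, and 2 had an unadjusted p under 0.05 (limma), beside 11.7% of all loci.

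Among the other ligands, none of 7 rose in either iPSC group and 4 fell (Inha, Inhba, Tgfb1 and Tgfb3). Inha, the inhibin alpha chain, whose locus was assigned by order alone, had the largest difference and was the most abundant gene of the list in SSC, at 120, 139 and 117 FPKM against 0.534 to 1.80 FPKM in iPSC (log2 difference -5.99 in SSCiPSC and -6.10 in fiPSC, limma, adjusted p = 4.20e-05 and 1.54e-05). Inhba, the activin beta A chain, stood at 17.6, 15.3 and 57.2 FPKM in SSC and at no more than 0.296 FPKM in iPSC. Both are textbook products of Sertoli cells, whose markers were also higher in SSC than in iPSC (summed values above). Within SSC, Inha was highest in replicate 2, where the Sertoli sum was highest, and Inhba in replicate 3, where that sum was lowest. The summed Leydig, macrophage, mast cell and fibroblast or feeder markers were highest in replicate 3. The part of any of these cells in the result was not tested. Inhbb, the beta B chain, was the most abundant listed ligand in iPSC, at 18.8 to 25.0 FPKM in SSCiPSC and 13.5 to 13.8 FPKM in fiPSC, beside 13.4 to 15.9 FPKM in SSC (adjusted p = 0.0763 and 0.455 against SSC, limma).

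Among convertases and secreted antagonists, Pcsk6, a convertase that cleaves the Nodal precursor, rose from 1.71 to 2.52 FPKM in SSC to 13.4 to 17.7 FPKM in SSCiPSC and 10.1 to 13.6 FPKM in fiPSC (log2 difference 2.39 and 2.08, limma, adjusted p = 0.000360 and 0.000437). The activin binding proteins Fst and Fstl3 fell. Fstl3 stood at 11.8 to 16.7 FPKM in SSC and 0.666 to 2.78 FPKM in iPSC. Cer1, a secreted Nodal antagonist of the anterior visceral endoderm, was not tested, with 0.760 FPKM in SSC replicate 3 and 0.316 FPKM in fiPSC replicate 1 as its values above 0.

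Among the other receptors, Acvr2a, Tgfbr1, Tgfbr2 and Tgfbr3 fell in both iPSC groups and Bambi, a pseudoreceptor, did not pass. Acvr2a, the second type II receptor for activins, stood at 15.4 to 17.1 FPKM in SSC and 3.72 to 5.52 FPKM in iPSC, the reverse of the direction of Acvr2b. Tgfbr1, the most abundant in SSC, stood at 24.0 to 33.2 FPKM there and 5.49 to 6.47 FPKM in iPSC. Tgfbr2 differed most, by -2.78 in SSCiPSC and -2.79 in fiPSC (limma, adjusted p = 0.000383 and 0.000364). Cfc1 (Cryptic), the relative of Tdgf1, was at 0 in SSC and at no more than 0.338 FPKM in iPSC, where Tdgf1 was at 214 FPKM or more.

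Of the other Smads and partners, Smad3 stood at 22.7 to 28.7 FPKM in SSC and 5.68 to 7.29 FPKM in iPSC (log2 difference -1.74 and -1.92, limma, adjusted p = 0.000360 and 0.000173). Smad4, the common partner, stood at 22.7 to 25.1 FPKM in SSC and 16.6 to 19.8 FPKM in iPSC, and passed in fiPSC only (-0.42, adjusted p = 0.0206; in SSCiPSC -0.34, adjusted p = 0.0889, limma). Drap1, a partner that restrains Foxh1, was the most abundant, at 67.8 to 101 FPKM over all 9 libraries, and did not pass.

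Among negative regulators inside the cell, Ski, Smurf1 and Smurf2 fell and Tgif1 rose in both iPSC groups, and Skil rose in fiPSC (0.48, adjusted p = 0.0461, limma). Tgif1, a corepressor of Smad2, stood at 41.4 to 50.9 FPKM in SSC, 111 to 147 FPKM in SSCiPSC and 105 to 120 FPKM in fiPSC, the most abundant gene of the list in every iPSC library (log2 difference 1.43 and 1.25, limma, adjusted p = 0.000557 and 0.000327). Ski stood at 52.1 to 60.6 FPKM in SSC and 19.9 to 28.8 FPKM in iPSC.

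The targets known from early embryos did not move as 1 group. A further tested target was called higher in both iPSC groups and is not described here. Eomes rose in SSCiPSC (0.94, adjusted p = 0.0349, limma), from 1.85 to 4.10 FPKM in SSC to 5.43 to 6.73 FPKM, and had 4.49 to 5.18 FPKM in fiPSC (adjusted p = 0.0846). T (Brachyury) and Lhx1 fell, and Lhx1 stood at 6.05 to 10.1 FPKM in SSC and at no more than 0.0614 FPKM in iPSC. Gsc, Mixl1 and Foxa2, factors of the primitive streak and endoderm, were below 1.59 FPKM in all 9 libraries and were not tested.

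**Figure D5:**
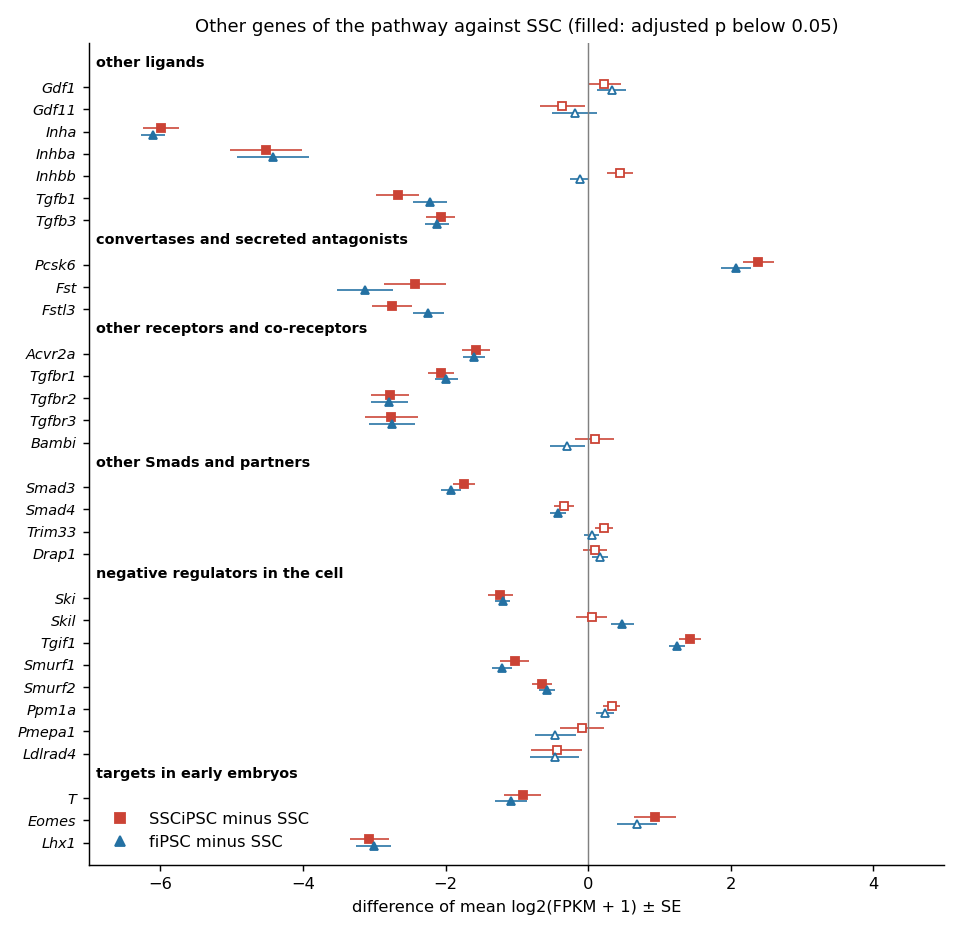
Difference of mean log2(FPKM + 1) ± SE (limma) from SSC for 30 of the 31 tested genes of the wider pathway, by role, in SSCiPSC (squares) and fiPSC (triangles). The remaining tested gene, a target known from early embryos that was called higher in both iPSC groups, is not drawn. Filled points have an adjusted p below 0.05, and most of them lie to the left of 0, with Pcsk6 and Tgif1 to the right in both groups.

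Markers of the pluripotent state were compared in the same way. All 12 listed pluripotency genes were called higher in both iPSC groups than in SSC, beside 26.2% of all loci in SSCiPSC and 28.0% in fiPSC. Among them was Esrrb, at 0.486 to 0.716 FPKM in SSC and 170 to 298 FPKM in iPSC. Pou5f1, Sox2 and Klf4 of this list are also carried by the doxycycline-switched allele. Transcripts of the allele and of the native genes were not told apart. In fiPSC against SSCiPSC none of the 12 passed, with 7 at an unadjusted p under 0.05 (limma), beside 11.7% of all loci. Of these 7, Dppa3 had the higher mean in fiPSC, and Nanog, Esrrb, Tbx3, Tfcp2l1, Prdm14 and Nr0b1 had the lower mean there. The median difference of the 12 was -0.44, beside 0.01 over all loci. Of 8 listed genes of the primed state 4 were tested, of which 3 were higher in SSCiPSC and 4 in fiPSC than in SSC, beside the same shares of all loci. Among them, Otx2, a homeobox factor of the epiblast, rose from 0.558, 0 and 0 FPKM in SSC to 17.3 to 24.5 FPKM in SSCiPSC and 24.6 to 38.6 FPKM in fiPSC, and Fgf5 was at 1.40 FPKM or less in all 9 libraries.

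Over the 6 iPSC libraries, the genes whose level varied most like that of a member were sought among 5555 genes with a mean of at least 10 FPKM, by Pearson's r of log2(FPKM + 1), as a description. For Nodal these were Slc9a8 (r = 0.981), Cpt1c (0.975), Arf5 (0.967), Mpg (0.963) and Ctc1 (0.955), and 29 genes reached 0.9. For Lefty locus 1 they were Tob1 (0.995), Etfa (0.986), Tma16 (0.985), Cbfb (0.964) and Cars (0.962), with 52 genes at 0.9 or more. For Lefty locus 2 they were Cul4a (0.987), Saraf (0.979), Atxn10 (0.973), Ctsl (0.973) and Pafah1b3 (0.972), with 91 at 0.9 or more. Without SSCiPSC replicate 2, the r of the 5 genes most like Lefty locus 2 lay between 0.828 and 0.919. No other member was among these genes. The 6 points are 3 libraries of each of 2 groups, and each pair of genes shares the libraries and their scaling.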

How the data were processed

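The files hold RNA-seq values of 9 libraries, made from total RNA after ribosomal depletion with a stranded kit, per the labels. The study's methods instead name a stranded mRNA kit, applied to the mRNA in total RNA. The authors deposited 1 table of FPKM for 54914 loci (its header says RPKM), and 1 locus with a blank value was dropped. The submitters' processing notes list Trimmomatic 0.32, TopHat2 2.0.9, Bowtie2 2.1.0, Cufflinks 2.2.1, Cuffdiff and the build mm9, but the coordinates fit GRCm38: 92.8% of 16363 stranded loci overlapped a coding gene of GENCODE M21 on the same strand, against 38.3% and 37.9% when moved by 1000000 bases. Each gene was matched by position and strand, since the printed gene names were wrong, and took the locus with the highest mean of the 9 libraries. Gene and locus had to overlap by at least 50% of each. Where that failed, a wider interval that covered 50% of the gene was taken (Foxh1, Gdf1, Sox2, Tbx3), and where an interval held several genes and as many loci of 1 strand, loci were assigned by order (Inha, Gdf11, Tagln). In loci with no strand and an interval of their own, FPKM values were whole multiples of 1 fragment within 0.05 in every library, which gave the depth. Fragment limits cover counting error only. SSC libraries were the shallowest, so values under about 1 FPKM rest there on few fragments.

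Groups were compared in pairs with limma 3.58.1 (R 4.3.3; empirical Bayes with a trend) on log2(FPKM + 1), a scale that understates the change of low genes, over loci of at least 1 FPKM in 3 of the 6 libraries, with Benjamini-Hochberg adjustment. Fits that leave out a library required 1 FPKM in 2 libraries. The script was tested on simulated data. Alternatives were another pseudocount, other filters, normalizations and fits, summed loci, leaving out each library and, chosen after seeing the data, both Lefty genes on 1 locus. Named were all members, in each role of the wider pathway the most abundant gene and that with the largest called difference, the marker lists, and the 5 genes most like Nodal and each Lefty locus. Other genes were named after their values were seen. The members and lists were chosen with earlier results of these data known. Some items are not reported here. Coding bases were compared in GRCm38, and printed sequences come from RefSeq GRCm38.p6 (promoter windows, for 4 of the 10 members).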

Additional observations from a re-analysis of the deposited data

How the results depend on the processing

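The counts of members called ranged from 8 to 10 in SSCiPSC against SSC over 16 alternatives and from 8 to 10 in fiPSC against SSC, and none was called in fiPSC against SSCiPSC under any of them. Nodal, Gdf3, Tdgf1, both Lefty loci, Foxh1 and Acvr1b were past the threshold against SSC in all 15 alternatives run for each gene. Acvr2b was not in 5 alternatives for SSCiPSC and 2 for fiPSC, Smad2 in 1 (summed loci, SSCiPSC) and Smad7 in 1 (quantile normalization, SSCiPSC). For the wider pathway, a filter of a mean of at least 5 FPKM gave 13 calls in SSCiPSC against SSC in place of 20, since 19 rather than 31 genes were tested. The other alternatives gave 18 to 23 calls, and in fiPSC against SSC, with 21 calls, that filter gave 14 and the others 19 to 23. Against SSCiPSC, the uncalled differences of 4 members in fiPSC changed sign: Lefty locus 1 to 0.12 and Tdgf1 to -0.14 with summed loci, Lefty locus 2 to -0.04 without SSCiPSC replicate 2 (0.82 without replicate 3 at the other end), and Acvr2b to -0.08 without SSCiPSC replicate 1 (0.19 without replicate 2), and the cause was not tested. Scalings moved the median of all loci in SSCiPSC against SSC from 0.11 to 0.05 (quantile) and 0.23 (median-ratio), and the filter of 5 FPKM raised the share of calls that were higher from 52.1% to 66.3%.

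Replicate numbers recur in all groups, but same-numbered libraries did not deviate together (correlations of -0.236 to 0.021 over 40404 loci), so the numbers do not pair them. With the number as a replicate block, 10 members were called in SSCiPSC against SSC, 9 in fiPSC against SSC and 0 in fiPSC against SSCiPSC, and over all loci 16926, 17546 and 6 calls were made in place of 18396, 19680 and 23.

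The shallow SSC libraries limit what can be said of levels near 0: for Tdgf1, a count of 0 allows up to 0.961 FPKM in SSC replicate 1 and 1.23 FPKM in replicate 3.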
